A study of Homo sapiens with 2 samples.

Results

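The genes described here are TXNIP, ARRDC4, SLC2A1, SLC2A3 and SLC2A5, the glucose-responsive alpha-arrestins and 3 hexose transporters. They were chosen by name and function, with earlier results of these data known, and were found by Ensembl ID. All 5 were listed in both libraries, among 16145 genes listed in either and 10548 listed in both. RNA-seq was made from 1 culture labelled Control and 1 labelled AG, both of HAL-01, a human leukaemia cell line labelled pre-B acute lymphoblastic leukaemia. The AG culture had been given 0.8 mM 1,5-AG (1,5-anhydroglucitol, a glucose analogue that lacks a hydroxyl at the anomeric carbon) for 24 h. How the Control culture was treated, and the glucose in the medium, are not stated in the labels. Each group is a single library, so the differences carry no test and no p-value. The interval beside each value covers the counting of fragments only, not the spread between cultures.

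TXNIP and ARRDC4 are adaptor proteins of the alpha-arrestin family that promote removal of glucose transporters from the cell surface, TXNIP being best known for its action on GLUT1. Their genes are switched on by the transcription factors MondoA and ChREBP, which act with MLX and respond to phosphorylated sugar inside the cell, so both mRNAs are widely read as sensors of glucose. SLC2A1 encodes GLUT1, the basal glucose transporter of proliferating cells. SLC2A3 encodes GLUT3, a glucose transporter of high affinity, and SLC2A5 encodes GLUT5, a fructose transporter.

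The sequences before the starts of TXNIP and ARRDC4 are shown because these genes share their known regulators and were both lower in AG. They come from RefSeq (GRCh38.p14), whose promoter table matched 4 of the 5 genes, SLC2A3 being the one not matched. Positions are counted back from the RefSeq start, with -1 the base before it, and the stretches end before the first base of the gene in GENCODE 29. Capitals mark matches, on either strand, to CCAAT, to the E-box CACGTG and to the paired E-box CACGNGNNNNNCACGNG, the spacing of a carbohydrate response element. The letters of the paired motif were chosen with the TXNIP promoter in view. The TXNIP stretch is chr1:145996601-145996829 on the minus strand (229 bases) and the ARRDC4 stretch is chr15:97960453-97960697 on the plus strand (245 bases).
TXNIP: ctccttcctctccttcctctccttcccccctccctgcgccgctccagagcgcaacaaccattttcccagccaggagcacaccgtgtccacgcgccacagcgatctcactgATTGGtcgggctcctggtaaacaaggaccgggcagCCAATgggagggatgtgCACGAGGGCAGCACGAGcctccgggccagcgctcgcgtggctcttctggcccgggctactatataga
ARRDC4: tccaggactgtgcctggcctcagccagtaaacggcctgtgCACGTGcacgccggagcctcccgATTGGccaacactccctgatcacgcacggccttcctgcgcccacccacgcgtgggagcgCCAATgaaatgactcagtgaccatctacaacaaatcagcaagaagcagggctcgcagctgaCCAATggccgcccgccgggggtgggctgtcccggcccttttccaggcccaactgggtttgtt

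The TXNIP stretch held the paired E-box at -88 to -72, as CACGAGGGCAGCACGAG, and CCAAT at -140 to -136 (in reverse, as ATTGG) and at -105 to -101. The paired motif occurred in 0.057% of 35116 RefSeq promoters of 300 bases. The ARRDC4 stretch held no paired match but a single E-box at -210 to -205, a motif of 7.26% of promoters. It held CCAAT at -187 to -183 (in reverse), -128 to -124 and -67 to -63, and CCAAT occurred in 34.6% of promoters. SLC2A1 and SLC2A5 each had a single CCAAT match, at -47 to -43 and, in reverse, at -17 to -13, and no E-box of either kind. The TXNIP stretch also held GTAAACA, the core of FOXO sites, at -124 to -118, a motif of 3.42% of promoters that none of the others of the 4 held. A match describes letters only, and no binding was measured.

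TXNIP was 2.47-fold lower in AG than in Control. Its level was 76.8 FPKM (fragments relative to gene length and to the total of the library) in Control and 31.1 FPKM in AG. These values rest on 4496 and 1666 fragments, where 4113 would be counted in AG at the Control rate. The ratio of AG to Control was 0.405 (95% counting interval 0.383 to 0.429), and the difference of log2(FPKM + 1) was -1.28. TXNIP moved from percentile 97.4 of 7000 listed protein-coding genes in Control to percentile 91.9 of 7071 in AG. Genes with no value in 1 or both libraries are not read as silent, as the authors' filters are not stated. The expressed genes, those listed in both libraries whose mean reached 1 FPKM, numbered 5528. Of these, 0.886% were at least 2-fold lower in AG on the log2(FPKM + 1) scale, and TXNIP was 21st from the lowest difference on that scale. Of 2890 protein-coding genes whose mean reached 5 FPKM, 3 had a lower difference than TXNIP. In a bulk library, fewer cells that express a gene and less RNA per cell cannot be told apart.

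ARRDC4, the closest relative of TXNIP in this set, was also lower, and by less. Its level was 3.14 FPKM in Control and 2.17 FPKM in AG, from 207 and 131 fragments. The ratio was 0.692 (95% counting interval 0.552 to 0.865), a difference of -0.38 on the log2(FPKM + 1) scale. It was thus within 1.5-fold on that scale. Of the 5528 expressed genes, 6.93% were past 1.5-fold, 3.33% lower and 3.60% higher, and of the 4 expressed members 1, TXNIP, was lower and 0 were higher. The counting intervals of TXNIP, ARRDC4 and SLC2A1 lay under 1, as did those of 22.9% of the 5526 genes that had one.

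SLC2A1 was slightly lower and SLC2A5 was nearly level. SLC2A1 stood at 51.6 FPKM in Control and at 42.5 FPKM in AG, from 5543 and 4179 fragments. Its ratio was 0.824 (95% counting interval 0.791 to 0.858) and its log2 difference -0.27. Of the 5528 genes, which include many of lower level than SLC2A1, 13.1% were further down. Its counting interval excluded 1, but the usual range between cultures was not measured. SLC2A5 stood at 19.7 FPKM in Control and at 20.2 FPKM in AG, from 2118 and 1995 fragments. Its ratio was 1.03 (95% counting interval 0.968 to 1.10), an interval that includes 1.

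SLC2A3 was scarce in both libraries and higher in AG. It had 0.426 FPKM in Control and 0.710 FPKM in AG, from 42 and 64 fragments, a ratio of 1.67 (95% counting interval 1.11 to 2.52). Its mean was under 1 FPKM, so it was the 1 gene of the 5 that did not enter the 5528. Of 5013 genes under that level with an interval, 3.61% had one over 1. That share includes genes with fewer fragments than SLC2A3 and wide intervals, such as SLC2A11 with 11 and 6. The split of reads between SLC2A3 and its near-copy SLC2A14, which had a ratio of 6.87, is uncertain, as described below.

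**Figure D1:**
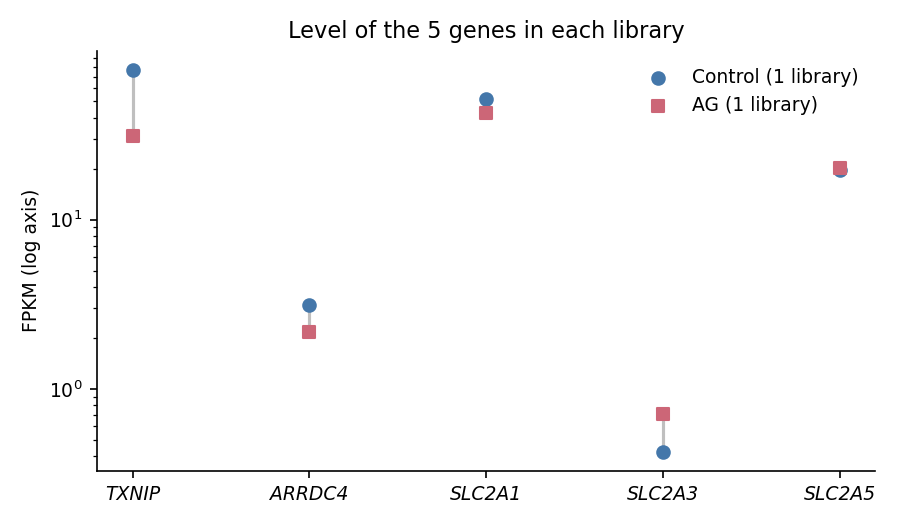
Level of each of the 5 genes in FPKM on a log axis, with 1 point for the Control library and 1 for the AG library, joined by a line. TXNIP goes from 76.8 to 31.1 FPKM and passes below SLC2A1, while the SLC2A5 points nearly coincide.

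The order of the levels changed between the libraries at 1 place. In Control it was TXNIP, SLC2A1, SLC2A5, ARRDC4 and SLC2A3, and in AG SLC2A1 came first and TXNIP second. Neighbours in each order were further apart than their counting intervals. The nearest as a ratio of levels were, in AG, SLC2A1 at 42.5 FPKM (41.2 to 43.8) and TXNIP at 31.1 FPKM (29.6 to 32.6). In Control they were TXNIP at 76.8 FPKM (74.6 to 79.1) and SLC2A1 at 51.6 FPKM (50.3 to 53.0).

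**Figure D2:**
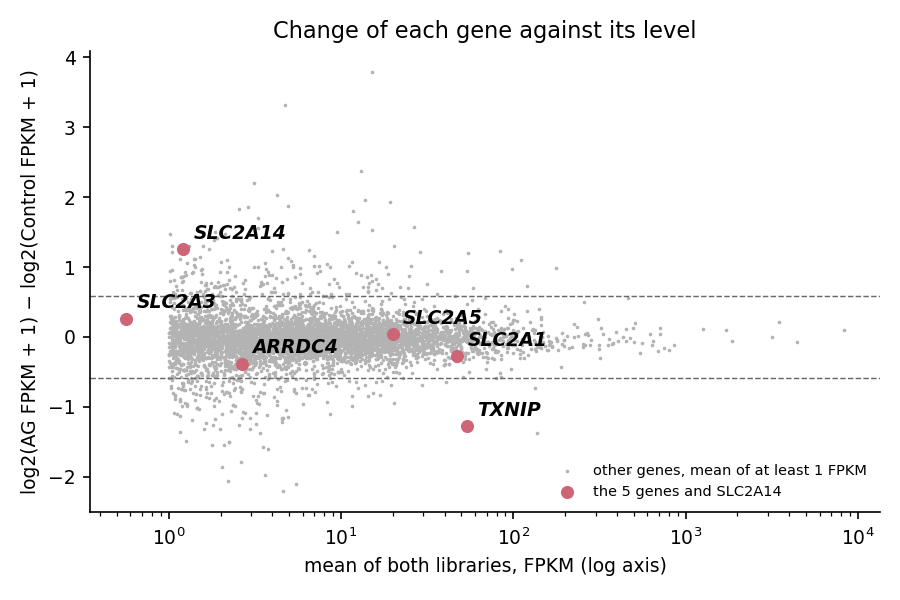
Difference of log2(FPKM + 1), AG minus Control, against the mean FPKM of both libraries on a log axis, with grey points for the 5528 expressed genes and dashed lines at 1.5-fold. TXNIP lies below the lower line at -1.28, the other 4 genes lie between the lines, and SLC2A14, a near-copy of SLC2A3, lies above at 1.26.

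Ratios between genes within a library do not depend on how the libraries were scaled to each other. There were 1.49 units of TXNIP FPKM per unit of SLC2A1 FPKM in Control and 0.732 in AG, a change of 0.491 times (95% counting interval 0.459 to 0.527). The FPKM ratio of TXNIP to SLC2A5 went from 3.91 to 1.54. TXNIP was 24.5 times as abundant as ARRDC4 in Control and 14.3 times in AG, a change of 0.586 times (0.467 to 0.734), so the arrestins differed in the size of their decrease by more than counting error. The ratio of ARRDC4 to SLC2A1 changed by 0.839 times (0.672 to 1.05), an interval that includes 1. The ratio of SLC2A1 to SLC2A5 was 2.62 in Control and 2.10 in AG, a change of 0.800 times (0.744 to 0.861).

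Of the 6 other genes on the arrestin list, 3 had values in both libraries. All 3 were within 1.5-fold, as were 93.1% of the 5528 expressed genes. ARRDC1, an alpha-arrestin of vesicle budding, was at 16.4 FPKM in Control and 13.8 FPKM in AG, and their ratio was 0.842 (95% counting interval 0.766 to 0.926). The beta-arrestins, which act on G protein-coupled receptors, had ratios of 0.955 for ARRB1 (0.867 to 1.05) and 0.879 for ARRB2 (0.780 to 0.989). The median difference of the 3 was -0.17 on the log2 scale, against -0.03 over the 5528 genes.

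Of 14 facilitative hexose transporters on the list, 6 had values in both libraries, and their summed FPKM was 74.6 in Control and 69.3 in AG. SLC2A1 made up 69.2% of that sum in Control and 61.3% in AG, and SLC2A5 26.4% and 29.2%. The other 4, SLC2A3, SLC2A11, SLC2A13 and SLC2A14, together came to 3.32 FPKM and 6.55 FPKM. SLC2A13, the proton-coupled myo-inositol transporter, was at 2.51 FPKM in Control and 3.67 FPKM in AG, and their ratio was 1.47 (95% counting interval 1.29 to 1.67). SLC2A11 rested on 11 and 6 fragments.

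**Figure D3:**
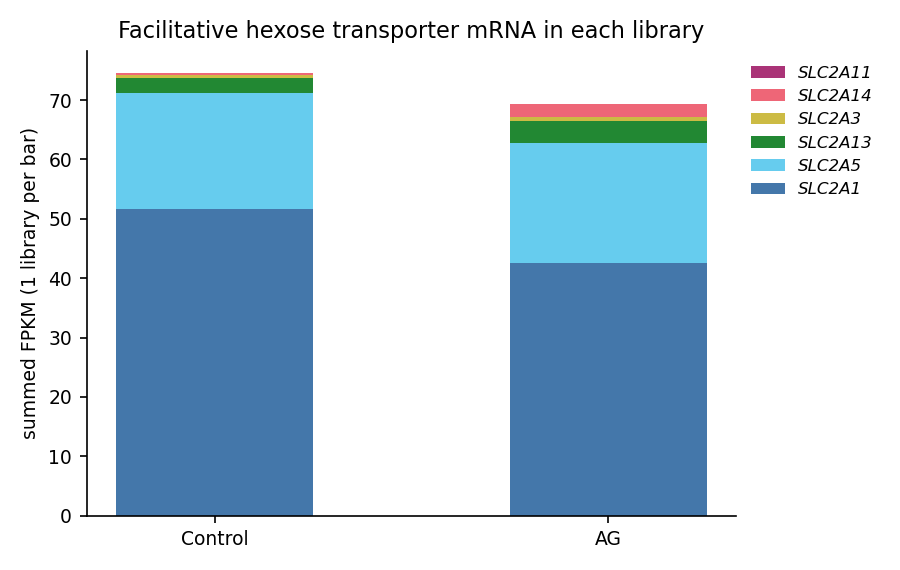
Summed FPKM of the 6 facilitative hexose transporters with values in both libraries, 1 bar per library, split by gene. The SLC2A1 part is 51.6 FPKM in Control and 42.5 FPKM in AG, and the parts of SLC2A13 and SLC2A14 are taller in AG.

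SLC2A14, which encodes GLUT14, showed the greatest ratio of the 6, and it is a near-copy of SLC2A3 on the same chromosome. It was at 0.309 FPKM in Control and 2.12 FPKM in AG, from 28 and 176 fragments, a ratio of 6.87 (95% counting interval 4.59 to 10.6). The FPKM ratio of SLC2A14 to SLC2A3 was 0.726 in Control and 2.99 in AG, a change of 4.13 times (2.36 to 7.20). Their coding sequences in GENCODE 29, of 1491 and 1608 bases, were 96.8% identical over 1491 aligned bases, with 48 mismatches and a longest identical run of 137 bases. A stretch of 120 aligned coding bases near the start of each reading frame (from coding base 9 of SLC2A3 and 126 of SLC2A14) is shown because it makes plain how few bases tell reads of these genes apart. Capitals mark its 6 mismatches.
SLC2A3: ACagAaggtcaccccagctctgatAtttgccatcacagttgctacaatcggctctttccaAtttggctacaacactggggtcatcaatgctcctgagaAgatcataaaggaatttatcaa
SLC2A14: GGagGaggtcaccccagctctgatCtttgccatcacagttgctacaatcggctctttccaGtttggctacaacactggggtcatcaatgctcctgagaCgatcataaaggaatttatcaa

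Over whole transcripts less was shared. Of the 50-base windows of SLC2A3 transcripts, 16.1% also occurred in transcripts of another gene, SLC2A14 first among them, and of the 100-base windows 4.19% did. For SLC2A14 these shares were 20.4% and 6.21%. How the authors placed reads with several matches is not stated, so the split between these genes is uncertain. Their fragments together were 70 in Control and 240 in AG, a ratio per library total of 3.75 (95% counting interval 2.86 to 4.96), so the sum was higher in AG however the reads were split between them. TXNIP and ARRDC4 shared no 50-base window with another gene. SLC2A5 shared 0.892% of its 50-base windows. SLC2A1 shared 1.64%, with the overlapping non-coding genes SLC2A1-AS1 and AC099795.1.

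**Figure D4:**
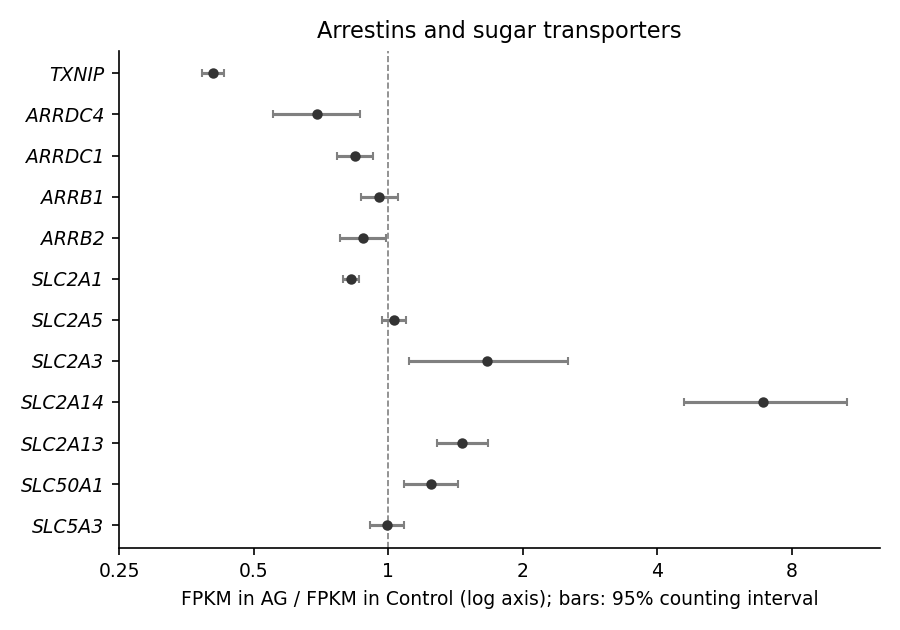
Ratio of AG to Control FPKM on a log axis for arrestins, facilitative transporters and other sugar transporters, with 95% counting intervals as bars and a dashed line at 1. TXNIP at 0.405 and SLC2A14 at 6.87 lie furthest from 1.

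Of 8 sodium-coupled and SWEET sugar transporters on the list, 4 had values in both libraries and 2 were expressed. Both were within 1.5-fold, as were 93.1% of all expressed genes. SLC50A1, a member of the SWEET family, was at 10.3 FPKM in Control and 12.9 FPKM in AG, and their ratio was 1.25 (95% counting interval 1.09 to 1.43). SLC5A3, a sodium-coupled myo-inositol transporter, was at 5.95 and 5.91 FPKM. SLC5A2 and SLC5A10 each rested on 3 fragments or fewer per library.

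Among the factors that act on these genes, the MondoA gene itself was within 1.5-fold. MLXIP, which encodes MondoA, was at 2.77 FPKM in Control and 2.41 FPKM in AG, and their ratio was 0.870 (95% counting interval 0.772 to 0.981). An interval under 1 was shared by 22.9% of the 5526 genes that had one. MLXIPL, which encodes ChREBP, was listed in Control alone, at 1.73 FPKM, and was not compared. Of the 13 genes of the MondoA, MLX, MYC and MAX network, 4 were expressed. All 4 were within 1.5-fold, as were 93.1% of all expressed genes. MYC, a growth factor-induced transcription factor that shares DNA motifs with MondoA, was the lowest of them, with a ratio of 0.759 (0.721 to 0.798). MAX, the partner of MYC, had a ratio of 0.993 (0.909 to 1.08), and MNT, a repressor that pairs with MAX or MLX, one of 1.07 (0.903 to 1.28).

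Of 14 other targets attributed to MondoA and ChREBP, 3 were expressed, all of them genes of lipid metabolism. Of these 3, 2 were at least 1.5-fold higher in AG, against 3.60% of all expressed genes. The list was chosen with earlier results of these data known, so this comparison is not a test. PNPLA3, a lipid droplet enzyme, was at 7.06 FPKM in Control and 15.2 FPKM in AG, and their ratio was 2.16 (95% counting interval 1.90 to 2.45). SCD, a fatty acid desaturase, had a ratio of 1.98 (1.93 to 2.03), and ACACA, acetyl-CoA carboxylase, one of 1.28 (1.19 to 1.37). These lipid genes have other regulators as well. Of 9 further regulators of TXNIP transcription, 3 were expressed and all 3 were within 1.5-fold, as were 93.1% of all expressed genes. They were FOXO3, with a ratio of 0.910, the vitamin D receptor gene VDR, with 1.03, and NFYC, a subunit of the CCAAT-binding factor, with 0.904.

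Partners and regulators of the TXNIP protein were described by the few list genes that had values. All 5 expressed genes of the thioredoxin list, out of 15, were within 1.5-fold, as were 93.1% of all expressed genes. TXN, the thioredoxin that TXNIP binds, was at 182 FPKM in Control and 175 FPKM in AG, and their ratio was 0.962 (95% counting interval 0.912 to 1.01). The ratio of TXNRD1, the cytosolic thioredoxin reductase, was 0.947 (0.911 to 0.985). Both expressed genes of the list of 11 NEDD4 family ubiquitin ligases and adaptors, the class that marks TXNIP for degradation, were within 1.5-fold, with ratios of 0.899 for SMURF1 and 1.16 for NDFIP1. The 5 expressed genes of 11 on the list of AMPK, a kinase that phosphorylates TXNIP, and its upstream kinases were within 1.5-fold too. PRKAA1, an AMPK catalytic subunit, had a ratio of 1.09 (1.04 to 1.14).

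On the list of glucose transporter traffic, all 12 expressed genes of 25 were within 1.5-fold, from -0.17 to 0.09 on the log2 scale, with a median of 0.00. TBC1D1, a Rab regulator of transporter traffic, was at 21.6 and 21.4 FPKM, and VPS35, a retromer subunit, at 19.9 and 18.8 FPKM. Of 7 kinases that phosphorylate sugars 3 were expressed, and 1 of these was past 1.5-fold, HK3, a hexokinase of myeloid cells, with a ratio of 4.02 (95% counting interval 3.49 to 4.64). HK2, the inducible hexokinase, had a ratio of 0.837 (0.745 to 0.939). Over the 11 lists, with the 5 genes of the opening left out, 44 of 130 genes were expressed. Genes of the 130 with no value in 1 or both libraries were not counted, and whether they were silent is not known. Of the 44, 4 were at least 1.5-fold higher (SLC2A14, PNPLA3, SCD and HK3) and 0 were lower. SLC2A14 reached the mean of 1 FPKM through its AG value alone, and 3 of 43 were higher among those that also reached 1 FPKM in Control. In all 5528 genes, for which no minimum in Control was set, 199 (3.60%) were higher and 184 (3.33%) lower.

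With 2 libraries, likeness to TXNIP is a single difference per gene. The 8 nearest protein-coding genes whose mean reached 5 FPKM were MLC1, RFX8, NAPRT, INKA1, BCL2, SLC39A10, TP73 and NUDT7. MLC1 was the nearest, at -1.38 against -1.28 for TXNIP on the log2(FPKM + 1) scale, and RFX8 followed at -1.10. NUDT7 was the furthest of them, at -0.74.

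The lineage markers did not follow the label of the cells. Of 16 markers of B cell precursors, 8 were listed in Control and 6 in AG. BLNK, an adaptor of B cell receptor signalling, was at 0.229 FPKM in Control and 0.228 FPKM in AG, and CD79A, a chain of that receptor, at 0.275 and 0.351 FPKM. Of 14 markers of granulocytes and monocytes, 7 and 8 were listed, between 1.55 and 743 FPKM in Control and between 1.70 and 194 FPKM in AG. Their sum was 952 FPKM in Control and 498 FPKM in AG, where CEBPE, without a value in Control, added 1.70 FPKM. CTSG, at 743 and 194 FPKM, carried the difference between the sums. Without CTSG the sum was 209 FPKM in Control and 305 FPKM in AG, again with CEBPE in AG alone. Of the 6 others with values in both libraries 4 were higher in AG (LYZ, S100A9, CD33 and ITGAM) and 2 were lower (ELANE and MPO). The part of these markers in the TXNIP difference was not tested. Of the genes behind the TCF3-HLF fusion known from the HAL-01 line, HLF was listed in Control alone, at 0.00909 FPKM. Of 5 markers of T and NK cells 1 was listed, NKG7 at 17.2 FPKM in Control and 10.3 FPKM in AG, and of 5 erythroid markers 1, HBB, in Control alone at 0.0472 FPKM. No marker was listed at 0, and markers without a value were not analysed here.

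TXNIP (ENSG00000265972) spans bases 145992435 to 145996600 of chromosome 1 in GRCh38 (GENCODE 29), minus strand. ARRDC4 (ENSG00000140450) spans bases 97960698 to 97973838 of chromosome 15, plus strand. SLC2A1 (ENSG00000117394) and SLC2A5 (ENSG00000142583) span 42925375 to 42959176 and 9035107 to 9088478 of chromosome 1, and SLC2A3 (ENSG00000059804) spans 7919230 to 7936275 of chromosome 12. These 3 genes are on the minus strand. Each value covers all exons of a gene. The gene length implied by the values was 3604 bases for TXNIP, 4062 for ARRDC4, 6071 for SLC2A3 and 6632 for SLC2A5, near the GENCODE 29 exon lengths of 3625, 4072, 6159 and 6693. For SLC2A1 it was 6614 against 4724 bases, so its level relative to the other genes depends on the authors' gene model, while its ratio between the libraries does not.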

How the data were processed

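The authors deposited 1 table of FPKM by gene for the Control library and 1 for the AG library. Per the submitters' processing notes, the tools were Trimmomatic, HISAT2, Cufflinks and HTSeq and the build was hg38. Annotation, strand setting and filters are not given there. The libraries were made with a stranded mRNA kit, per the labels' protocols. The members and lists were chosen with earlier results of these data known. Of 16145 IDs, 15678 matched GENCODE 29. FPKM times exon length gave whole fragments, within 0.01, for 88.4% of 5315 single-transcript genes of Control and 88.1% of 5259 of AG, implying totals of 16240451 and 14857372 fragments. Whole fragment pairs were recovered for all but 2 of 5528 expressed genes (listed in both, mean of 1 FPKM or more). They gave exact Clopper-Pearson intervals of the FPKM ratio, exact Poisson intervals of levels and Wald intervals of ratios of ratios, all at 95%. Changes are log2((AG FPKM + 1)/(Control FPKM + 1)), which understates those of low genes. No test was possible with 1 library per group, and fragments are not independent molecules. A list gene counted as higher or lower from 1.5-fold. Named were the 5 genes, list members and the 8 protein-coding genes of at least 5 FPKM nearest to TXNIP. The level of 1 cell type marker is not reported here. The steps were tested on simulated data. The alternatives were pseudocounts of 0.1 and 5 FPKM, rescaling, other filters and a 2-fold threshold. The software was pandas 2.3.3, scipy 1.17.1 and numpy 2.4.6 under Python 3.11.15, with figures by matplotlib 3.10.9.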

Additional observations from a re-analysis of the deposited data

How the results depend on the processing

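A pseudocount added to both libraries cannot change the direction of a gene, so pseudocounts of 0.1 and 5 FPKM bear on size only. A common total and scaling by the median of ratios also left the direction of each of the 5 genes unchanged. Their factors were too near 1 to reverse any of them, so kept directions are no support. With a pseudocount of 5 FPKM the log2 difference of TXNIP was -1.18, and that of ARRDC4 was -0.18 against -0.38. That of SLC2A3 was 0.62 with a pseudocount of 0.1 FPKM, past 1.5-fold, and 0.07 with 5 FPKM, against 0.26. Scaling to a common total or to the median ratio multiplied AG values by 1.01 or 1.03. In an alternative chosen after seeing the data, the summed FPKM of SLC2A3 and SLC2A14 gave a log2 difference of 1.14, against 0.26 for SLC2A3 alone, because the sum includes SLC2A14. The number of genes past 1.5-fold was 383, against 631 with a pseudocount of 0.1 FPKM, 100 with 5 FPKM, 117 where the mean had to reach 5 FPKM and 114 at 2-fold. The depth limits SLC2A3 (42 and 64 fragments) and ARRDC4 (207 and 131) most. No paired analysis was possible because there is 1 library per group.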

Other observations

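The paired E-box of the TXNIP promoter (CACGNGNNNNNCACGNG, either strand) occurred in the RefSeq promoters of 20 genes, of which 10 were expressed (mean of 1 FPKM or more). Of these 10, TXNIP, on whose promoter the letters were chosen, was at least 1.5-fold lower in AG, 1 was at least 1.5-fold higher and 8 were within 1.5-fold, with a median log2 difference of 0.05. Of all expressed genes 6.93% were past 1.5-fold. The higher one was RCN3, a calcium-binding protein of the endoplasmic reticulum, at 3.11 FPKM in Control and 7.39 FPKM in AG, and their ratio was 2.38 (95% counting interval 1.83 to 3.11). P4HA1, a collagen prolyl hydroxylase subunit, was next at 18.7 and 27.8 FPKM, a ratio of 1.48 (1.36 to 1.62). TIGD1 was the lowest after TXNIP, at 1.27 and 0.847 FPKM, and its interval of 0.400 to 1.09 includes 1. RCN3, P4HA1 and TIGD1 were chosen after their values were seen. The other 10 of the 20 genes were not compared.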
